A study of Mus musculus with 8 samples.

Results

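Ketone bodies are made in the liver, leave it through a membrane carrier and are taken apart again where they are used. Here 5 genes of these steps (Acat1, Bdh1, Oxct1, Aacs and Slc16a1) were followed in the liver of KK-Ay mice. They were chosen by name, and every probe set whose annotation gives exactly 1 of these symbols was used, which came to 14 of 45037 probe sets and 5 of 18193 genes. Of the 14, 10 had a mean above the median of all probe sets.

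The arrays held liver RNA of 8 male KK-Ay/TaJcl mice, 1 array per mouse, an obese strain with type 2 diabetes. The 4 CD mice ate the AIN-93G diet, and the 4 PD mice ate the same diet with 1 g of persimmon peel (PP) extract per kg, both for 8 weeks up to an age of 14 weeks and both fasted for 3 h before sampling. Both groups are of this strain, and no lean or healthy group is compared. Plasma total ketone bodies were measured by the study in both diet groups, and mice whose value lay close to the group average were taken for the arrays. The concentrations in single mice are not analysed here, so no transcript could be set against the ketone bodies of the same animal.

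In mitochondria of hepatocytes, acetyl-CoA from fatty acid oxidation is joined to acetoacetyl-CoA by thiolases such as Acat1, turned into acetoacetate, and partly reduced to 3-hydroxybutyrate by Bdh1. Tissues outside the liver reactivate acetoacetate in mitochondria with Oxct1, an enzyme for which hepatocytes are known to be poor. Aacs reactivates it in the cytosol, where the acetoacetyl-CoA feeds cholesterol and fatty acid synthesis. Slc16a1, the carrier MCT1, moves lactate, pyruvate and ketone bodies across the plasma membrane.

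Upstream sequence is shown for Aacs, the gene called between the diets, and for Slc16a1, the only gene with a motif match upstream of its start among the 4 of the 5 genes that had a promoter window. Each run holds the 250 bases before the annotated start (RefSeq, GRCm38.p6, plus strand), from the windows chr5:125475623-125475922 and chr3:104638414-104638713. Capitals mark an E-box and a GC box.
Aacs: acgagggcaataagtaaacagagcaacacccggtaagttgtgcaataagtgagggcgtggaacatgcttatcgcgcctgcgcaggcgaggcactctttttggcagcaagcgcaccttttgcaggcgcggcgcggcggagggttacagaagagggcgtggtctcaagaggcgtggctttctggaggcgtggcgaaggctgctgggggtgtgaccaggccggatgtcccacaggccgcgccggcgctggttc
Slc16a1: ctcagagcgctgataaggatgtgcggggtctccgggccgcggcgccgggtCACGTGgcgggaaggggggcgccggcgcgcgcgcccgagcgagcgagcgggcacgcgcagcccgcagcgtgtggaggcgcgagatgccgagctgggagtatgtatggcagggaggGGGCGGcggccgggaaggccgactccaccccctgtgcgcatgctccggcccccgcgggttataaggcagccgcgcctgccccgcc

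The motifs searched on both strands were TCACNCCAC (the core of a sterol regulatory element), CACGTG (E-box), CCAAT (NF-Y box), GGGCGG (GC box) and AGGTCA (nuclear receptor half-site). Among 32851 promoter windows of 300 bases, which reach 50 bases past the start, they were found in 1.24%, 7.15%, 37.4%, 35.7% and 16.3%. The Aacs window held none of the 5. The Slc16a1 window held an E-box at -200 and a GC box at -85 from the start. Of the other windows, that of Oxct1 and the first of Bdh1 held none, and the second of Bdh1 held a GC box on the minus strand at 15 bases past the start. A match is given as letters only, and a missing match says no more than that these letters are not in the window. In the same build, Aacs lies at chr5:125475873-125517405, Slc16a1 at chr3:104638664-104658462, Acat1 at chr9:53580522-53610350, Oxct1 at chr15:4026428-4155344 and Bdh1 at chr16:31422297-31458901.

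Across the 5 genes, Aacs was the gene called between the diets, about 1.4-fold higher on average in PD than in CD mice on both of its brighter probe sets. No probe set of Bdh1, Acat1, Oxct1 or Slc16a1 was called in either direction. The call was made by the rank product, the study's method, which ranks the PD to CD ratios over all pairs of arrays, at a false discovery rate (FDR) under 0.1. It called 2 of the 14 probe sets higher and 0 lower, where 0.218% of all probe sets were called higher and 0.258% lower. In limma, which sets a difference against the spread between mice, 0 of the 14 passed an adjusted p under 0.1 and 0 an unadjusted p under 0.05. Over all probe sets those shares were 0% and 3.65%. The CD and PD mice did not separate fully on any of the 14, against 2.08% of all probe sets. Of the 14 differences, 6 were higher and 8 lower in PD, with a median of -0.01 on the log2 scale, against a median of -0.004 over all probe sets. Aacs was also picked out by the study on these same arrays, so its direction here is not independent evidence.

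**Figure D1:**
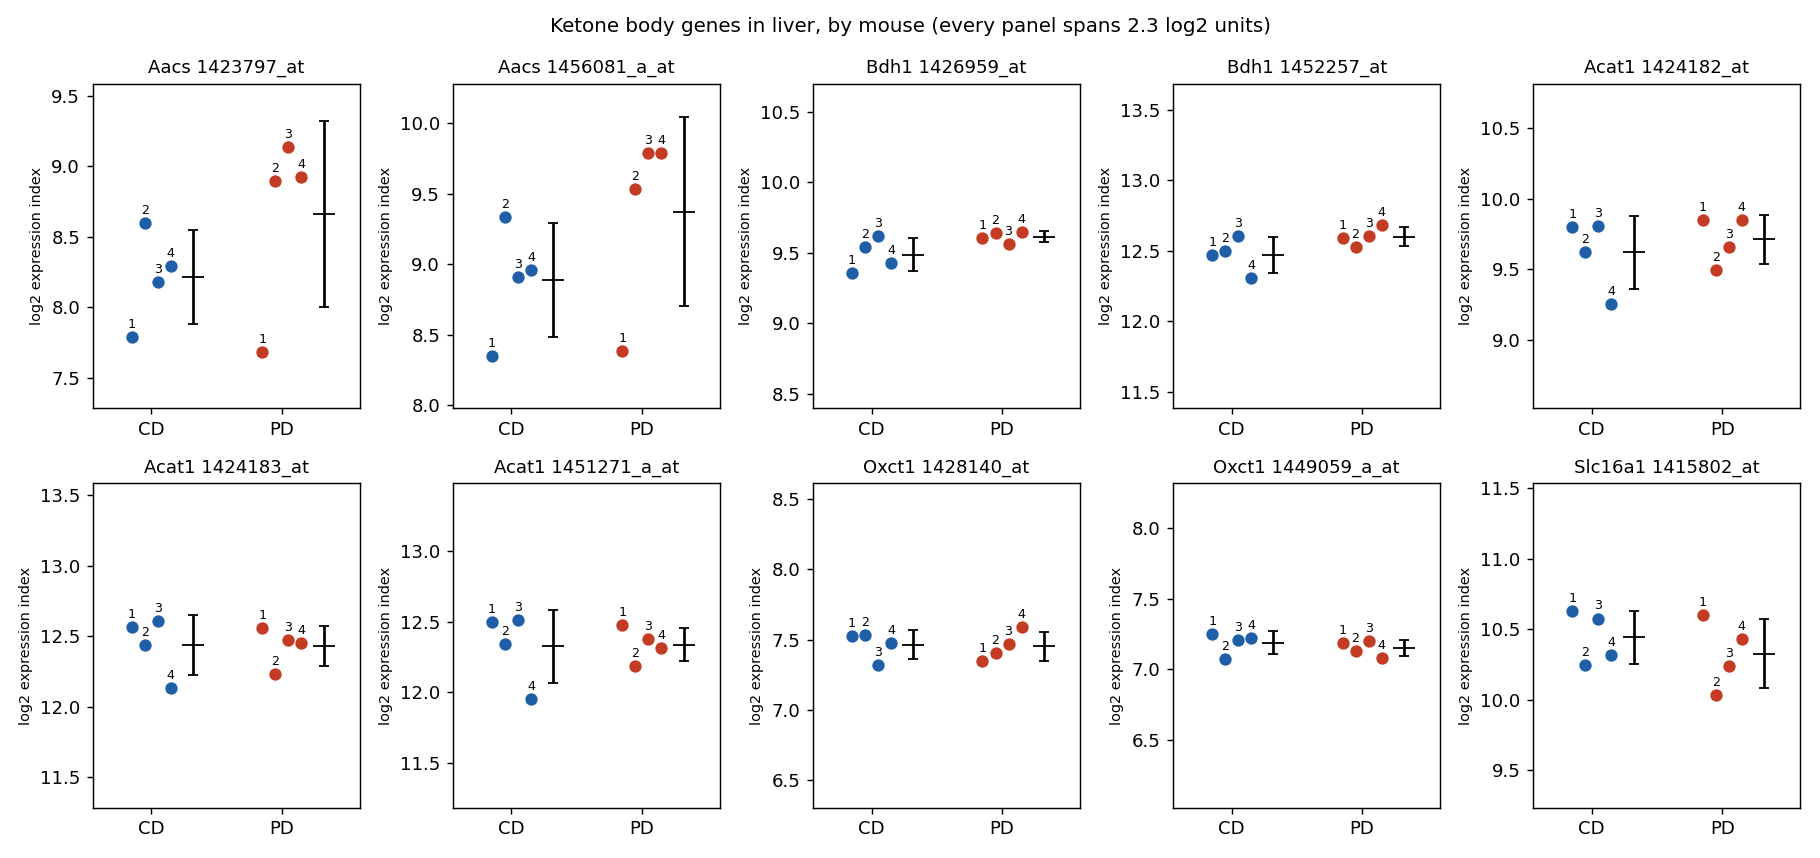
Log2 expression index in each mouse for the 10 probe sets whose mean was above the median of all, with CD in blue, PD in red, the replicate number above each point and a bar for the mean ± SD (n = 4). On both Aacs panels mice PD2, PD3 and PD4 lie above every CD mouse while PD1 lies near the lowest CD mouse, and in the other panels the groups overlap, on the Bdh1 panels through CD3 alone.

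For the first step of synthesis, Acat1 was read by 3 probe sets. On 1424183_at the log2 values were 12.56, 12.44, 12.61 and 12.13 in CD1 to CD4 and 12.56, 12.23, 12.47 and 12.45 in PD1 to PD4. The 2 groups covered the same range, and CD4 was the lowest mouse on all 3 probe sets. The mean was 12.44 ± 0.21 in CD and 12.43 ± 0.14 in PD mice (SD, n = 4 each), a difference of -0.01 with a 95% interval from limma of -0.24 to 0.22 (exact permutation test, two-sided p = 0.943). On 1451271_a_at the values were 12.50, 12.34, 12.51 and 11.95 in the CD and 12.47, 12.19, 12.38 and 12.31 in the PD mice, a difference of 0.01 with an interval of -0.24 to 0.27. On 1424182_at they were 9.80, 9.62, 9.81 and 9.25 in the CD and 9.85, 9.50, 9.66 and 9.85 in the PD mice, a difference of 0.09 with an interval of -0.18 to 0.36. Without CD4 the differences were -0.11 on 1424183_at, -0.11 on 1451271_a_at and -0.03 on 1424182_at, none called.

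Bdh1, which interconverts acetoacetate and 3-hydroxybutyrate, was a little higher in PD on both of its probe sets, without a call. On 1452257_at the log2 values were 12.47, 12.50, 12.61 and 12.31 in CD1 to CD4 and 12.59, 12.53, 12.61 and 12.68 in PD1 to PD4. Mouse CD3 lay inside the PD range and the other CD mice below it. The means were 12.47 ± 0.12 and 12.60 ± 0.06 (SD, n = 4 each), a difference of 0.13 with an interval of -0.01 to 0.27 (exact permutation test, two-sided p = 0.114).

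On Bdh1 1426959_at the values were 9.36, 9.54, 9.62 and 9.43 in the CD and 9.60, 9.64, 9.56 and 9.64 in the PD mice. Again CD3 alone reached into the PD range. The difference was 0.13, from 9.48 ± 0.12 to 9.61 ± 0.04 (SD, n = 4 each), with an interval of -0.01 to 0.26 (exact permutation test, two-sided p = 0.0857). Unadjusted limma p-values were 0.0692 and 0.0583 for these probe sets, and both adjusted p-values were 0.998. The sign stayed positive under each of 19 settings, from 0.08 to 0.18 on the log2 scale. Those settings that alter only the call or the probe sets ranked leave the difference unchanged, so they could not turn its sign.

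Oxct1, the enzyme of mitochondrial ketone body use, did not pass either test on any of 4 probe sets. On 1428140_at the log2 values were 7.53, 7.53, 7.32 and 7.48 in CD1 to CD4 and 7.35, 7.41, 7.47 and 7.59 in PD1 to PD4. Values from the 2 diets were interleaved, with means of 7.46 ± 0.10 and 7.45 ± 0.10 (SD, n = 4 each) and a difference of -0.01 with an interval of -0.16 to 0.13. The other 3, 1436750_a_at, 1449059_a_at and 1455804_x_at, differed by -0.10, -0.04 and -0.05, with intervals that all held 0. Of the 4 probe sets, 2 had a mean below the median of all probe sets. The other 2 were not far above that median of 7.13, with means of 7.46 (1428140_at) and 7.17 (1449059_a_at).

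Aacs, the cytosolic enzyme, was read by 3 probe sets. On 1456081_a_at the log2 values were 8.35, 9.33, 8.91 and 8.96 in CD1 to CD4 and 8.39, 9.53, 9.79 and 9.79 in PD1 to PD4. The mice PD2, PD3 and PD4 were above every CD mouse, and PD1 was close to CD1, the lowest of all. The means were 8.89 ± 0.40 in CD and 9.37 ± 0.67 in PD mice (SD, n = 4 each), a log2 difference of 0.48 (SE 0.39) or 1.40-fold. The rank product gave an FDR of 0.0043.

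On Aacs 1423797_at the values were 7.79, 8.60, 8.18 and 8.30 in the CD and 7.68, 8.90, 9.14 and 8.92 in the PD mice. The order was alike, with PD1 now below every CD mouse. The means were 8.21 ± 0.33 and 8.66 ± 0.66 (SD, n = 4 each), a difference of 0.44 (SE 0.37) or 1.36-fold, at an FDR of 0.0063. The third probe set, 1451116_at, was below the median of all probe sets, ran from 7.02 to 7.24 over the 8 mice and differed by -0.05 with an interval of -0.17 to 0.07.

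The Aacs difference lay within the spread between mice. The 95% interval from limma ran from -0.17 to 1.14 on the log2 scale for 1456081_a_at, which is 0.889-fold to 2.20-fold, and from -0.18 to 1.06 for 1423797_at. The exact permutation test gave a two-sided p of 0.286 for both, where the smallest p that 4 mice against 4 allow is 0.0286. Leaving out PD3 ended both calls (FDR 0.178 and 0.255, differences 0.35 and 0.29), as did leaving out PD4 (FDR 0.131 and 0.108, differences 0.35 and 0.36). Without PD1 the differences rose to 0.81 and 0.77, and without CD1 they were 0.31 and 0.30. In bulk liver, more cells of a type and more RNA per cell cannot be told apart.

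**Figure D2:**
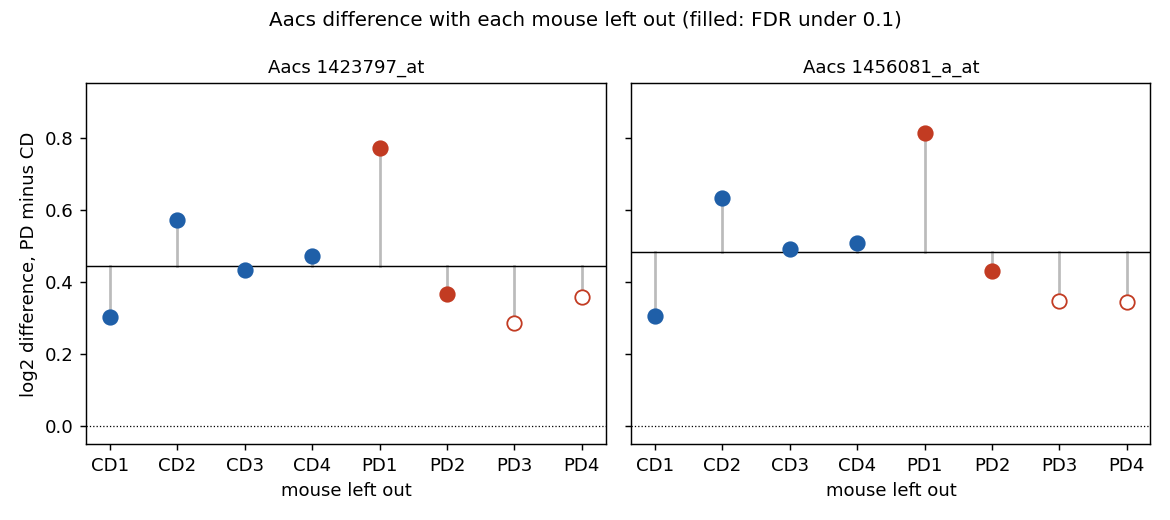
Log2 difference (PD minus CD) of Aacs on its 2 called probe sets with each mouse left out in turn, the mouse on the horizontal axis, blue for CD and red for PD. Filled points have an FDR under 0.1 and the solid line is the difference over all 8 mice. The difference stays above 0 throughout and is not called without PD3 or without PD4.

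Slc16a1, the carrier, was read by 2 probe sets, neither called. On 1415802_at the log2 values were 10.63, 10.25, 10.58 and 10.32 in CD1 to CD4 and 10.60, 10.03, 10.24 and 10.43 in PD1 to PD4. The groups overlapped over most of their range, with PD2 the lowest mouse. The means were 10.44 ± 0.19 and 10.33 ± 0.25 (SD, n = 4 each), a difference of -0.12 with an interval of -0.39 to 0.15 (exact permutation test, two-sided p = 0.486). Without PD2 the difference was -0.02 and without PD1 it was -0.21. The dim probe set 1446274_at differed by -0.06 with an interval of -0.16 to 0.05.

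**Figure D3:**
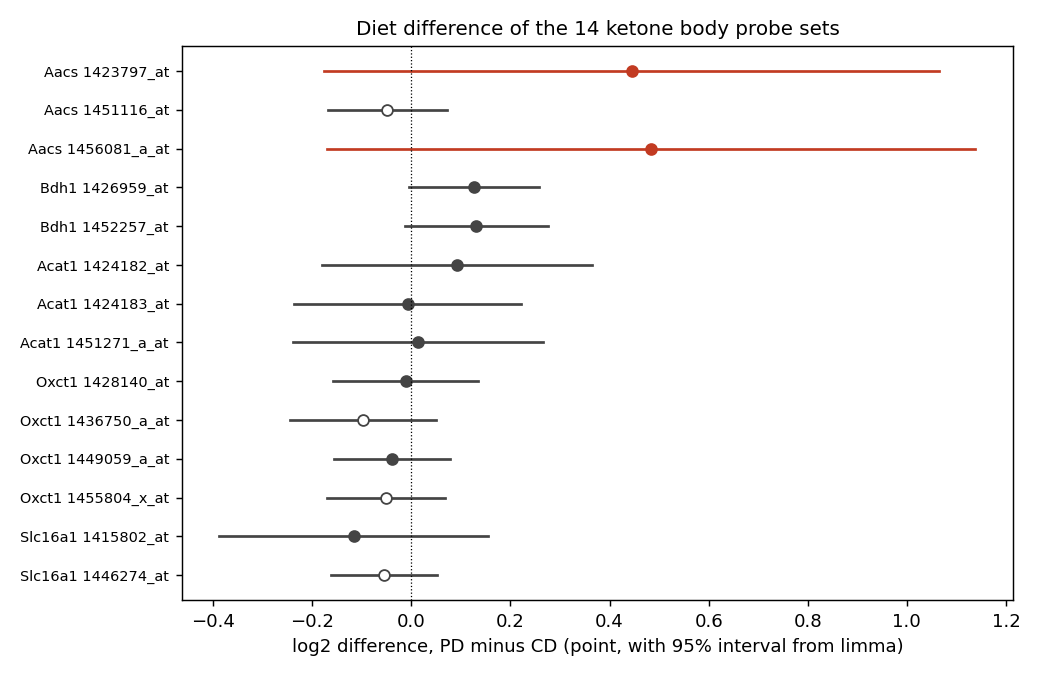
Log2 difference (PD minus CD) of the 14 probe sets with 95% intervals from limma (n = 4 mice per diet). Red marks the 2 Aacs probe sets called by the rank product and open points mark means below the median of all probe sets. Every interval includes 0, those of Bdh1 only just, reaching down to -0.01.

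Beyond these genes, 47 of 55 listed genes of the surrounding pathway had a probe set of their own and gave 91 probe sets. Of the 91, 54 were higher and 37 lower in PD, with a median of 0.01 on the log2 scale. The rank product called 3 higher and 0 lower, where 0.218% and 0.258% of all probe sets were called. By limma 0 passed the adjusted threshold and 6 an unadjusted p under 0.05, which 3.65% of all probe sets passed. In 1 of the 91, the Ppargc1a probe set 1437751_at, the diet groups did not overlap, as in 2.08% of all probe sets, so a single such probe set is no more than the background holds.

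The 3 called probe sets all belong to the list for the fates of cytosolic acetyl-CoA and acetoacetyl-CoA. None of these 3 genes takes acetoacetyl-CoA, the product of Aacs, directly. Acly, which makes cytosolic acetyl-CoA from citrate, differed by 0.35 on 1451666_at (FDR 0.0555). Its other probe sets differed by 0.01 to 0.28, none called, the brightest (1439459_x_at) by 0.21. Acacb, an acetyl-CoA carboxylase, differed by 0.35 on 1427052_at (FDR 0.0549) and by -0.01 on the dim 1445754_at, which was not called. Fasn, the fatty acid synthase, differed by 0.26 on 1423828_at (FDR 0.0967). These FDR values are nearer the threshold than those of Aacs, and leaving out CD2, PD2, PD3 or PD4 left 0 calls among the 91, while leaving out CD3 gave 8. In that list 17 of 19 probe sets were higher in PD, with a median of 0.07 on the log2 scale. Over all probe sets 21233 of 45037 were higher. The 19 come from 6 genes, so they are not 19 separate observations. The list was drawn up with results on these arrays known, so its direction is not independent evidence. Hmgcs1, which takes acetoacetyl-CoA on towards cholesterol, had differences of -0.01 to 0.06 on 5 probe sets, none called.

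The 8 mice did not fall in the same order for Acly 1451666_at, with 11.11, 10.44, 10.68 and 10.98 in CD1 to CD4 and 10.74, 11.25, 11.50 and 11.10 in PD1 to PD4. Mouse PD3 was the highest mouse for it and for Acacb 1427052_at, which ran from 7.83 to 8.30 in CD and from 7.99 to 8.86 in PD mice. PD1 was low for Fasn 1423828_at as for Aacs, at 11.08 against 12.10, 12.16 and 11.92 in PD2 to PD4. Among the CD mice the order was not alike. Mouse CD2 was the highest CD mouse for both called Aacs probe sets and the lowest for Fasn, at 11.08 against 11.61, 11.75 and 11.79 in CD1, CD3 and CD4.

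**Figure D4:**
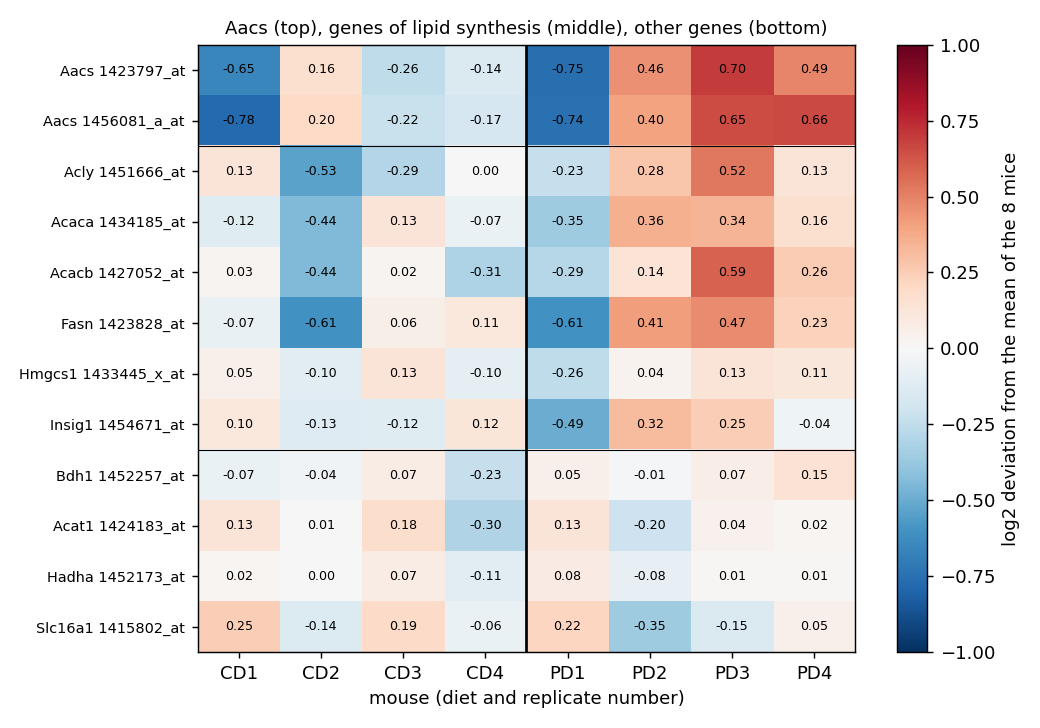
Log2 deviation of each mouse from the mean of the 8 mice, for 12 probe sets in rows and the mice in columns (CD left, PD right of the line), with the value written in each cell. The genes were picked by name. Each is shown by its called probe sets or, where it had none, by its brightest. PD1 is below the mean (blue) for Aacs, Acly, Acaca, Acacb, Fasn, Hmgcs1 and Insig1. CD2 is below it for the same genes except Aacs, and the rows of Bdh1, Acat1 and Hadha share a low CD4.

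Among the lists nearer to ketogenesis, 0 of 25 probe sets for fatty acid supply were called, 13 being higher and 12 lower in PD. Cpt1a, which admits fatty acids to mitochondria, differed by 0.21 on 1460409_at (limma adjusted p = 0.998) and by 0.05 and 0.10 on its other probe sets. Ppara, the nuclear receptor that drives ketogenic genes in fasting, was higher on all 3 of its probe sets by 0.20, 0.27 and 0.20, none called (limma adjusted p = 0.998). The Ppargc1a probe set 1437751_at, of a coactivator of Ppara, differed by 0.14 (exact permutation test, two-sided p = 0.0286, the smallest possible, and 1 of 91 compared). This probe set was dim, with a mean of 7.19 against a median of 7.13 over all probe sets. On it PD2 lay at 7.44 and the other PD mice at 7.18 to 7.22. On the other Ppargc1a probe sets the groups overlapped, with differences of 0.06 to 0.16, none called.

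Of 14 probe sets for other monocarboxylate carriers and their chaperones, 0 were called, with 5 higher and 9 lower. Slc16a7, the carrier MCT2, differed by 0.18 and Emb 1415856_at, a chaperone of such carriers, by -0.15. Both were among the 6 at an unadjusted limma p under 0.05. The rest of the 6 were Cpt1a 1460409_at, Ppara 1449051_at and 1457721_at, and Ppargc1a 1437751_at. On the other Emb probe sets, 1415857_at and 1447286_at, the differences were -0.05 and -0.003. Hcar2, a receptor for 3-hydroxybutyrate, differed by -0.05. Of 9 probe sets of the sterol-sensing SREBP machinery 0 were called.

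The deviations of each mouse from its group mean were compared over the 8 arrays as a description. The 2 called Aacs probe sets moved together (Pearson r = 0.99) and the third did not follow (r = 0.19 and 0.07), and the 3 Acat1 probe sets moved together (r = 0.93 to 0.98). Those of Bdh1 had r = 0.58. The brighter and the dim probe set of Slc16a1 did not move together (r = -0.43), nor did Oxct1 1428140_at with the other 3 of its gene (r = -0.33, -0.44 and -0.38). All points share the same 8 arrays. By the same measure, the 3 genes most like Aacs were Pip5k1c (r = 0.987), Mthfd1l (0.978) and Vasp (0.977), whose own diet differences were -0.06, -0.05 and -0.07. Those most like Acat1 were Ccdc151 (0.984), Scamp5 (0.973) and Hadha (0.972), the last a subunit of the trifunctional protein of fatty acid oxidation. For Bdh1 they were Kif21a, Zfp9 and 4933439C10Rik, and for Oxct1 Atp6v0a1, Lrfn1 and Ceacam15. For Slc16a1 they were Aasdhppt, Denn2b and Thra, and r over these members ran from 0.964 to 0.988. Each r is the highest of very many over only 8 arrays, so every member had such partners. Shared control was not tested.

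The arrays were alike, with medians of 7.09 to 7.16 and pairwise correlations of 0.991 to 0.996, and no 2 held identical values. All 6 hepatocyte markers had means above the median of all probe sets, their mean level being 14.04 to 14.12 in CD and 14.06 to 14.14 in PD mice. In 10 lists for other cell types the called markers were Col3a1 of the stellate cell list and Cidec of the adipocyte list. They were 1 of 6 and 1 of 3 measured markers, where 0.218% of all probe sets were called higher. The paper also lists Cidec among the upregulated genes under PPARγ, a regulator it predicted to be active. The adipocyte list, of which 0 of 3 markers were above the median of all probe sets, ran from 6.36 to 6.64 in CD and 6.39 to 6.91 in PD mice. Within it Cidec differed by 0.38, Adipoq by 0.01 and Lep by 0.02. The stellate list ran from 8.18 to 8.48 and from 8.35 to 8.39. Their part in the Aacs difference was not tested.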

How the data were processed

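One array of the Affymetrix GeneChip mouse platform was run per mouse. The authors deposited model-based expression indices on a log2 scale, for which the submitters' processing notes name R 2.7.2. How the arrays were normalized against each other is not given here by any source. The log2 values were taken as they stand, and 45037 probe sets were tested once 64 control probe sets had been removed. One symbol was annotated for 34945 of them, several for 932 and none for 9160.

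Rank products used 16 array pairs and 1000 permutations, in Python 3.11.15 (numpy 2.4.6, pandas 2.3.3, scipy 1.17.1). These permutations shuffled the probe sets within each array. Unlike the exact permutation tests, they did not exchange mice between the diets, and the 16 pairs share the same 8 mice. Limma 3.58.1 under R 4.3.3, with Benjamini-Hochberg adjustment, served as the other test on all probe sets, and exact permutation tests were two-sided. Both procedures were tested on simulated data.

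Every probe set of the 5 genes is reported. Other pathway genes come from lists, of which some members are not reported here, and are named where called or needed for orientation, and the genes most alike are the 3 of highest r. The members and lists were chosen with earlier results of these data known. Precision is limited by the number of arrays. Alternatives comprised a stricter FDR, the replicate block, quantile and median scaling, an offset of 16, 2 probe set filters, 100 permutations, the mean CD array as reference, gene means, 3 forms of limma and omission of each mouse.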

Additional observations from a re-analysis of the deposited data

Results flagged for a closer look

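On the Aacs probe set 1423797_at, mouse PD1 lay far below the other PD mice, at 7.68 against 8.90, 9.14 and 8.92 on the log2 scale. Its gap to the nearest other mouse was 0.835 of the range of the 4 PD mice, above the 95% critical value of Dixon's test. It was the only one of 28 groups (14 probe sets, 2 diets) to pass, and chance passes about 1 group in 20. Without PD1 the Aacs difference on this probe set was 0.77 in place of 0.44. The reason for the low value was not tested.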

How the results depend on the processing

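The sign of both called Aacs differences, and of both Bdh1 differences, was the same under every setting run. Part of these settings alter only the call or the probe sets ranked and leave the difference unchanged, so they could not turn its sign. The count of 2 member probe sets called higher fell to 1 when all probe sets of a gene were averaged, where the 3 Aacs probe sets become 1 value of 0.29 (FDR 0.0334). For the dim Aacs probe set that value replaces its own -0.05, so its sign turned by construction. With limma in place of the rank product the count was 0. Leaving out each mouse gave 0 to 2, the count being 0 without PD replicate 3 or PD replicate 4. The 3 other pathway probe sets called higher became 0 at an FDR under 0.05, 1 with gene means and 0 with limma, and 0 to 8 when each mouse was left out. The cause was not tested. Counts called lower, and those by limma, stayed at 0 throughout. With the replicate block the Aacs calls held (FDR 0.0132 and 0.0166) and the count stayed at 2. Mice of one replicate number did not deviate together (correlations from -0.06 to -0.0003 over probe sets), so the block pairs nothing here. The number of arrays and the spread between mice limit which differences can be told from 0.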
